A study of Mus musculus with 14 samples.

Results

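The genes described here form the route by which methylated arginines, nitric oxide and cyclic GMP are handled: Ddah1, Ddah2, Agxt2, Prmt1, Nos3, Nos1, Prkg1 and Pde5a. They are 8 of the 51912 genes in the deposited count tables of mouse hearts, and all 8 have a row in each of the 14 libraries. Ddah1 was selected on measured values of these same libraries, namely its smaller increase after pressure overload in the knockout, and the other genes were added as its pathway. The Ddah1 values are therefore given as a description without a test. Of the 8 genes, 7 passed the filter on low counts and entered the test over 15651 genes, and Agxt2 did not.

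All hearts came from mice on the C57BL/6J background, and each library is labelled as a separate heart sample. The knockout is labelled Clk3 KO, a loss of the gene of the splicing-factor kinase CLK3, and the wild type carries no labelled allele. TAC, transverse aortic constriction, is surgery that narrows the aorta and loads the left ventricle, and sham is the operation without the constriction. The groups were knockout TAC (n = 4, all of age 10 weeks), wild-type TAC (n = 2, both of age 10 weeks), knockout sham (n = 4) and wild-type sham (n = 4), and each sham group held 2 mice of 10 weeks and 2 of 11 weeks. The labels give neither the cell types that lost Clk3, nor the part of the gene deleted, nor the sex, nor the time between surgery and sampling. No label says which hearts were handled together, so a p-value here reflects sample-to-sample spread that may in part be technical.

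Asymmetric dimethylarginine is set free when proteins methylated on arginine are degraded, and it competes with arginine at the nitric oxide synthases. PRMT1 is the main enzyme that makes it in proteins, the DDAH enzymes hydrolyse it to citrulline and dimethylamine, and AGXT2, a mitochondrial aminotransferase known from kidney and liver, transaminates it. Nitric oxide from the endothelial synthase NOS3 or the neuronal synthase NOS1 activates soluble guanylate cyclase, the cyclic GMP it makes activates the kinase PKG I (Prkg1), and phosphodiesterase 5 (Pde5a) hydrolyses cyclic GMP. In the heart this route is known for relaxing vessels and for restraining hypertrophic growth of cardiomyocytes.

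The promoter windows of the 2 dimethylarginine hydrolases are shown because Ddah1 is the gene on which the set was selected and Ddah2 is its close paralogue with a different pattern. Each window covers 250 bases before and 50 bases after a RefSeq transcription start (build GRCm38.p6) and is printed 5′ to 3′ on the strand of the gene. The Ddah1 window is chr3:145758442-145758741 on the + strand and the Ddah2 window is chr17:35058785-35059084 on the + strand. Capitals mark matches on either strand to 6 short motifs, and of the 8 genes 7 had a window in the table.
Ddah1: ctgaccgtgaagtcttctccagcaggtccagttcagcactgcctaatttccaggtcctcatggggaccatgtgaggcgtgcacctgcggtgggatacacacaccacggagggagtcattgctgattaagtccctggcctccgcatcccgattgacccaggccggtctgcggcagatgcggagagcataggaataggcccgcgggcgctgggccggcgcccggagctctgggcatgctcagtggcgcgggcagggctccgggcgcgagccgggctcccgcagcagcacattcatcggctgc
Ddah2: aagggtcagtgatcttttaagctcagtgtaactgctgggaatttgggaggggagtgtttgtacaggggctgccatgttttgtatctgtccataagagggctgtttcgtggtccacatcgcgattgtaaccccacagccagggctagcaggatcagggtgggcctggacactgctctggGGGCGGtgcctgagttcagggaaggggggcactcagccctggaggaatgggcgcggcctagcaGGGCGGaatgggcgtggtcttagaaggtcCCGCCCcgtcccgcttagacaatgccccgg
The Ddah1 window held 65.7% G and C and no match to any of the 6 motifs searched. The Ddah2 window held 59.7% G and C and 3 matches to the GC box, GGGCGG. They lay at bases 179 to 184 and 242 to 247 on the + strand and at bases 271 to 276 on the other strand. At bases 271 to 276 the printed letters are the reverse complement of the motif. Among 32851 mouse promoter windows of the same length, 35.7% held a GC box, 37.4% a CCAAT, 13.6% a TATAAA, 7.15% the E-box CACGTG, 5.2% the AP-1 site TGACTCA and 1.79% the cAMP response element TGACGTCA. Neither of the last 2 motifs contains the other. These matches describe letters in the windows, and nothing about binding was measured.

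The libraries held 11385818 to 20369637 counts in genes. The library labelled wild-type TAC 1 stood apart from its label. It had 54.2 CPM (reads scaled to a common library size) of Clk3, inside the range of the 8 knockout libraries, 50.8 to 67.4 CPM, and below that of the other 5 wild-type libraries, 73.2 to 96.0 CPM. Clk3 reads remained in the knockout libraries, and with the deleted part not given they need not lie in it. Of the pseudogene Gm8730 it had 66.8 CPM, against 57.4 to 67.1 CPM in the knockout libraries and from 1.26 to 1.63 CPM in the remaining 5 wild-type libraries. With only 2 wild-type TAC libraries, leaving it out leaves 1 in that group, which is then assumed to vary like the other groups. A call lost in such a fit is read beside its fold change, and the cause of the loss was not tested. Cardiomyocyte markers were abundant in all groups, with sums over 8 genes of 28500 to 37770 CPM.

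CPM values here are on library sizes corrected by edgeR's trimmed mean of M values (TMM). Per kilobase of the longest annotated transcript, and averaged over the 14 libraries, Prmt1 had the highest level at 35.4 CPM per kb, with libraries from 31.3 to 43.7. Ddah2 followed at 22.8 (16.3 to 30.9), Nos3 at 13.8 (10.6 to 17.1) and Ddah1 at 2.65 (1.74 to 5.14) CPM per kb. Prkg1 had 2.44 (1.99 to 3.16), Pde5a 1.31 (1.00 to 1.51), Nos1 0.0490 (0 to 0.168) and Agxt2 0.00237 CPM per kb. The ranges over libraries overlapped between Ddah2 and Nos3 and between Ddah1 and Prkg1, and those of Prmt1 and Ddah2, and of Prkg1 and Pde5a, did not. The synthase gene of endothelium was thus read at a higher level per length than either Ddah1 or the genes downstream of cyclic GMP. Dividing by the union of exons instead gave the same order of the 8 genes.

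**Figure D1:**
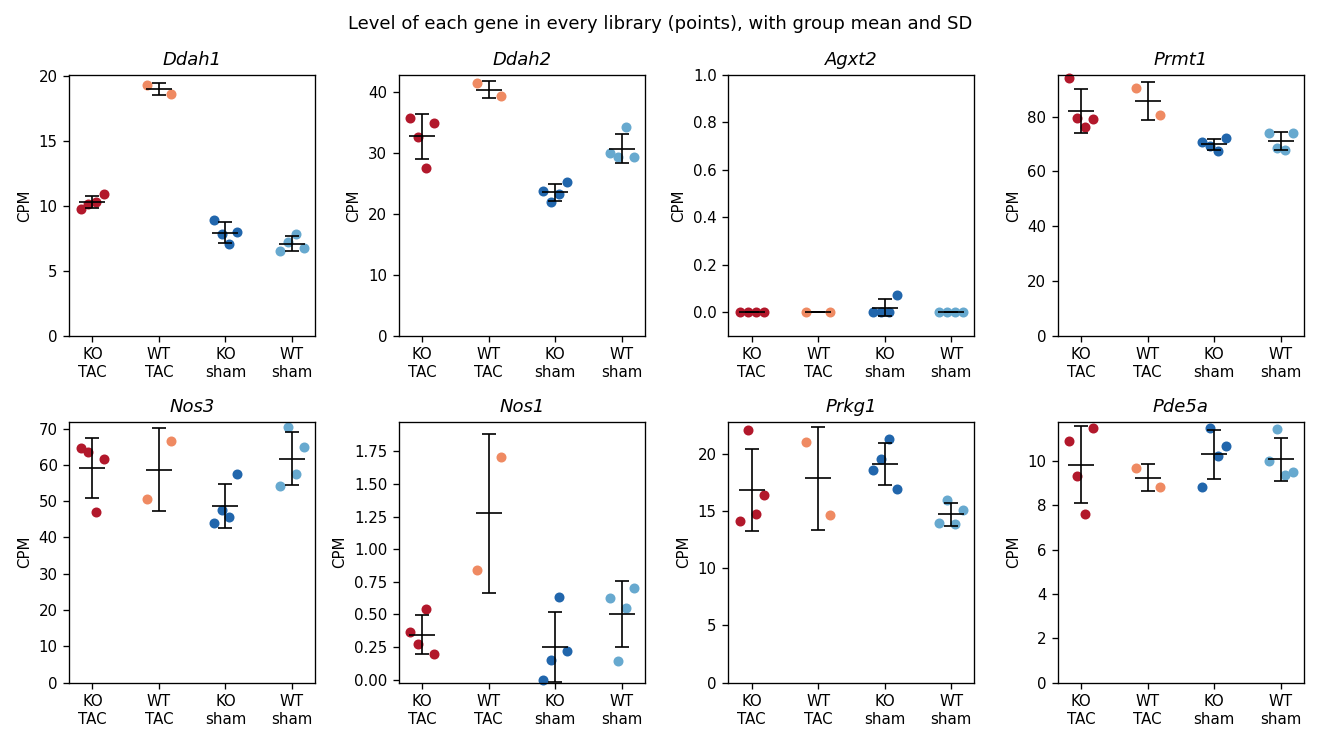
Level of each of the 8 genes in each library, in CPM on TMM-scaled library sizes, by group. Points are libraries and lines are the group mean with its SD (n = 4, 2, 4 and 4). The 2 wild-type TAC libraries of Ddah1, at 19.3 and 18.7 CPM, lie above all 12 others.

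Ddah1, the hydrolase with the better documented activity on asymmetric dimethylarginine, was highest in the wild-type TAC hearts. It lies at chr3:145758675-145894277 on the + strand (GRCm38). Its level was 9.79, 10.1, 10.3 and 10.9 CPM in knockout TAC hearts and 19.3 and 18.7 CPM in wild-type TAC hearts. In sham hearts it was 8.95, 7.81, 7.05 and 8.04 CPM in knockouts and 6.56, 7.25, 7.88 and 6.74 CPM in wild types. By label, both wild-type TAC libraries were thus above every knockout TAC library. All 6 TAC libraries were above all 8 sham libraries, and the sham groups overlapped. The library labelled wild-type TAC 1, at 19.3 CPM of Ddah1, had Clk3 and Gm8730 levels inside the ranges of the knockout libraries. Counted as a knockout, it would widen the knockout TAC range to 9.79 to 19.3 CPM. The only remaining wild-type TAC library, at 18.7 CPM, would then lie inside that range. The genotype behind the label was not tested. The Ddah1 levels rest on 84 to 252 counts per library.

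The fitted difference between TAC and sham was 0.37 ± 0.10 in knockouts and 1.41 ± 0.11 in wild types (log2, ± SE), which is 1.29-fold in knockouts and 2.67-fold in wild types. The difference of these differences was -1.04 ± 0.15 on the log2 scale. Knockout TAC hearts differed from wild-type TAC hearts by -0.88 ± 0.11, and knockout sham hearts from wild-type sham hearts by 0.16 ± 0.10. These are the values on which the gene was selected, or come from the same libraries, so no p is given. Without the library labelled wild-type TAC 1, whose Ddah1 level was close to that of wild-type TAC 2, the difference between the genotypes after TAC was -0.86, the TAC difference in wild types 1.39 and the difference of differences -1.02. Leaving out each of the 14 libraries in turn moved the difference of differences between -1.10 and -0.98, and the 10-week libraries alone gave -0.93.

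The deposited tables also split each gene's counts into coding and untranslated parts. The coding part took 19.2% ± 3.03 of the Ddah1 counts in knockout TAC hearts and 16.7% ± 1.68 in wild-type TAC hearts, against 22.0% ± 4.57 in knockout sham and 18.6% ± 4.005 in wild-type sham hearts (SD, n = 4, 2, 4 and 4). The shares overlapped between the groups. Over single libraries the coding share ran from 13.1% to 26.0%, so most Ddah1 reads lay in untranslated sequence in each. The coding part rests on 11 to 45 counts per library. The ratio of the mean CPM in TAC hearts to that in sham hearts was 1.13 in knockouts and 2.38 in wild types for the coding part, and 1.34 in knockouts and 2.74 in wild types for the untranslated part. In knockouts the coding part overlapped between TAC hearts, 1.48 to 2.28 CPM, and sham hearts, 1.24 to 2.13 CPM. The 2 parts sum to the counts on which Ddah1 was selected, so they only describe where those reads lay. A processed pseudogene, Rpl36a-ps2, lies inside the annotated span of Ddah1 on the same strand.

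**Figure D2:**
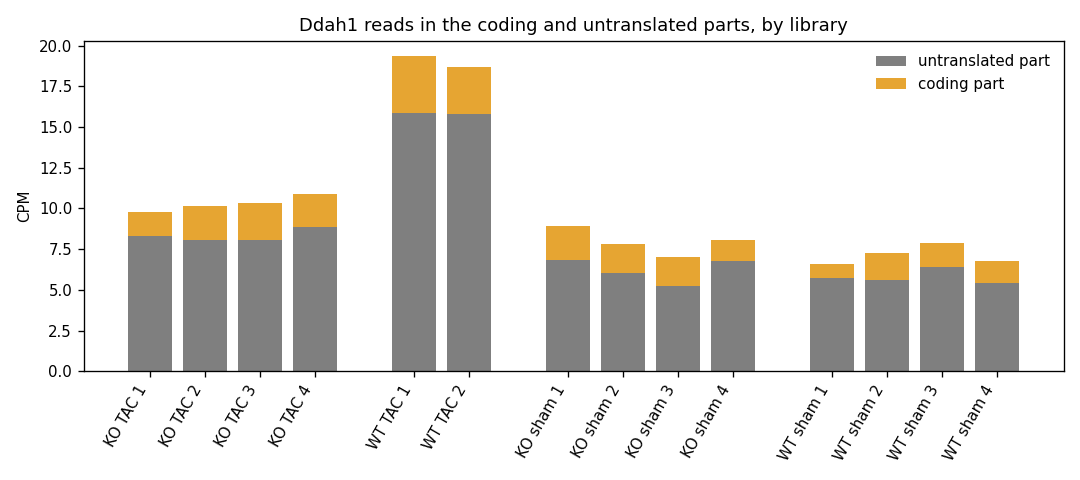
Coding and untranslated parts of the Ddah1 counts in each library, in CPM on TMM-scaled library sizes, 1 stacked bar per library, ordered by group. In wild-type TAC hearts the untranslated part averaged 15.8 CPM and the coding part 3.17 CPM, each above the averages of the other 3 groups.

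The summed markers of activated fibroblasts were, like Ddah1, highest in wild-type TAC hearts and next in knockout TAC hearts. Summed over 7 markers (Postn, Cilp, Comp, Thbs4, Fap, Meox1 and Ltbp2), they had 281, 259, 380 and 386 CPM in knockout TAC hearts and 1622 and 1091 CPM in wild-type TAC hearts, against 102 to 127 CPM in knockout sham and 105 to 170 CPM in wild-type sham hearts. Of the 7, 6 passed the test as higher after TAC in knockouts and 6 in wild types, beside 6.73% and 6.91% of all genes. Fap passed in neither, with a log2 difference of -0.10 in knockouts and 0.47 in wild types. None of the 7 was at 0 in any library. The sum over 9 general fibroblast markers was 2794 to 3156 CPM in knockout TAC and 3968 to 4581 CPM in wild-type TAC hearts. In sham hearts it was 2253 to 2659 CPM in knockouts and 2555 to 3196 CPM in wild types. Of these 9, 3 passed as higher after TAC in knockouts (Col1a1, Col1a2 and Col3a1) and 4 in wild types (the same and Lum), and none as lower. The others did not pass: in wild types the log2 difference was 0.43 for Dcn and 0.20 for Pdgfra. It was -0.10 for Tcf21, -0.27 for Gsn and -0.35 for Dpep1. The load marker Nppa, atrial natriuretic peptide, averaged 844 ± 216 CPM in knockout TAC and 1860 ± 73.8 CPM in wild-type TAC hearts, against 178 ± 49.7 CPM in knockout sham and 163 ± 51.2 CPM in wild-type sham hearts (SD, n = 4, 2, 4 and 4). This order was not particular to the fibroblast lists. The sum over 6 atrial markers, Nppa among them, was 647 to 1135 CPM in knockout TAC and 1837 to 1933 CPM in wild-type TAC hearts. In sham hearts it was 122.5 to 240.9 CPM in knockouts and 120.7 to 222.3 CPM in wild types. The part of cell composition or of the degree of load in the Ddah1 values was not tested. In whole hearts, fewer cells of a type and less RNA per cell cannot be told apart.

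**Figure D3:**
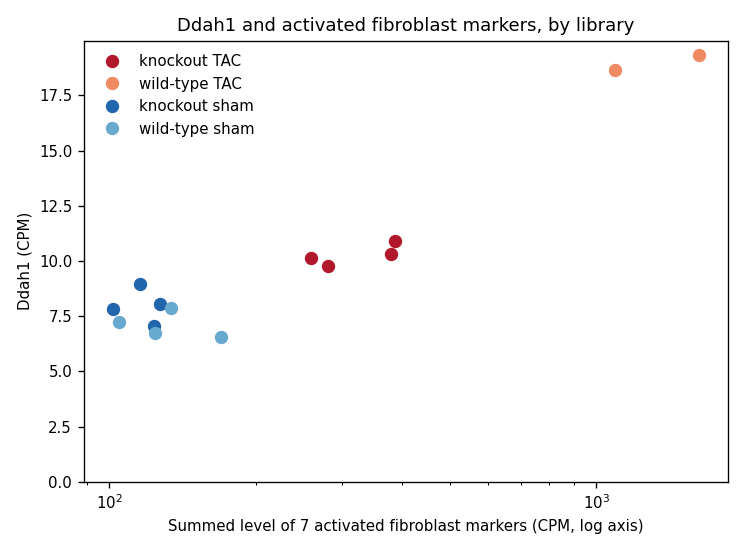
Ddah1 level in CPM (vertical axis) against the summed level of 7 activated fibroblast markers in CPM (horizontal log axis), 1 point per library. The wild-type TAC libraries, at 1622 and 1091 CPM of the markers, lie apart from the knockout TAC libraries at 259 to 386 CPM and from the sham libraries at 102 to 170 CPM.

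The genes whose pattern over the 14 libraries was most like that of Ddah1 were Postn, Enpp1, Col5a2, Thbs4 and Aldh18a1, among 10662 other tested genes of at least 5 CPM on average. Pearson's r of log2 CPM was 0.944 for Postn, 0.937 for Enpp1, 0.925 for Col5a2, 0.920 for Thbs4 and 0.920 for Aldh18a1. Postn and Thbs4 are also in the activated fibroblast list, Col5a2 encodes a fibrillar collagen chain, and Aldh18a1 encodes an enzyme of proline synthesis. The correlations were smaller within groups, least so for Aldh18a1: over deviations from the group means, r was 0.0615 for Postn, 0.289 for Enpp1, 0.322 for Col5a2, 0.111 for Thbs4 and 0.627 for Aldh18a1. They are a description of likeness, and the 14 points share the same 4 groups.

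Ddah2, the paralogue of Ddah1, was higher after TAC in both genotypes. It lies at chr17:35059035-35062095 on the + strand (GRCm38). Its level was 35.8, 32.7, 27.6 and 34.9 CPM in knockout TAC hearts, against 23.8, 21.9, 23.3 and 25.2 CPM in knockout sham hearts. All 4 knockout TAC libraries were above all 4 knockout sham libraries. In wild types it was 41.4 and 39.4 CPM in TAC hearts, against 29.98, 29.3, 34.3 and 29.3 CPM in sham hearts, again without overlap.

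By edgeR's quasi-likelihood test with Benjamini-Hochberg adjustment over all genes tested, Ddah2 rose after TAC by 0.47 ± 0.09 (log2, ± SE) in knockouts (adjusted p = 0.00457). In wild types it rose by 0.40 ± 0.11 (edgeR, adjusted p = 0.0224). The call in knockouts held when any of the 14 libraries was left out and was lost in the 10-week libraries alone (0.43, edgeR adjusted p = 0.135). The call in wild types was lost without the library labelled wild-type TAC 1, with a log2 difference of 0.36 (edgeR, adjusted p = 0.189), and over all 19 alternatives its adjusted p ran from 0.0104 to 0.189 with 14 calls. The difference of the TAC effects between the genotypes was 0.08 ± 0.14 for Ddah2 and did not pass the test (edgeR, adjusted p = 0.957). Without the library labelled wild-type TAC 1 it was 0.11.

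Between the genotypes, Ddah2 averaged less in knockouts with and without TAC, and neither difference passed the test. After TAC, knockouts differed from wild types by -0.31 ± 0.11 (edgeR, adjusted p = 0.183), or -0.27 without the library labelled wild-type TAC 1, with averages of 32.8 ± 3.67 CPM in knockout TAC and 40.4 ± 1.43 CPM in wild-type TAC hearts (SD, n = 4 and 2). In sham hearts the difference was -0.38 ± 0.09 (edgeR, adjusted p = 0.0546), with averages of 23.5 ± 1.37 CPM in knockouts and 30.7 ± 2.38 CPM in wild types (SD, n = 4 each). The 4 knockout sham libraries lay below all 4 wild-type sham libraries. DESeq2 called this sham difference (adjusted p = 0.0078), and over the 19 alternatives the adjusted p ran from 0.0078 to 0.359, with 5 calls and 14 without.

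The genes most like Ddah2 over the 14 libraries were Cd9 (r = 0.962), Vim (r = 0.953) and S100a11 (r = 0.951). Over deviations from the group means, r was 0.824 for Cd9, 0.716 for Vim and 0.769 for S100a11. Cd9 is a tetraspanin of the cell surface, Vim encodes the intermediate filament vimentin of mesenchymal and endothelial cells, and S100a11 encodes a calcium-binding protein. In contrast to Ddah1, the coding part held most Ddah2 counts, 87.3% ± 1.43 in knockout TAC, 86.9% ± 0.271 in wild-type TAC, 88.3% ± 1.05 in knockout sham and 86.0% ± 1.79 in wild-type sham hearts (SD, n = 4, 2, 4 and 4).

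Agxt2, the alternative route of dimethylarginine disposal, had 1 count in knockout sham 4 and 0 counts in the other 13 libraries. A count of 0 allows up to 3 counts in a library, so these hearts set only an upper limit on Agxt2. The markers of kidney and liver, where AGXT2 is known to act, were near 0 as well: 5 such markers summed to 0.326 to 1.02 CPM in knockout TAC, 0.222 to 0.767 CPM in wild-type TAC, 0.344 to 0.634 CPM in knockout sham and 0.324 to 0.547 CPM in wild-type sham hearts. Umod and Slc22a6 were at 0 in every library.

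Prmt1, which methylates arginines in histones, RNA-binding proteins and other substrates, rose after TAC in knockouts. It lies at chr7:44975989-44986568 on the - strand (GRCm38). It had 93.9, 79.4, 76.0 and 79.0 CPM in knockout TAC hearts, against 70.7, 69.2, 67.3 and 72.2 CPM in knockout sham hearts. In wild types it had 90.5 and 80.6 CPM in TAC hearts, against 73.9, 68.6, 67.8 and 74.0 CPM in sham hearts. In both genotypes every TAC library was above every sham library.

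The rise of Prmt1 passed the test in knockouts, at 0.23 ± 0.07 (log2, ± SE; edgeR, adjusted p = 0.0475). In wild types the difference was 0.27 ± 0.09 and did not pass (edgeR, adjusted p = 0.0592). The difference of the TAC effects between the genotypes, -0.04, did not pass (edgeR, adjusted p = 0.984). The knockout call was held in 6 of 19 alternatives, with adjusted p from 0.0255 to 0.291, and was kept in only 4 of the 14 fits with a library left out. The wild-type value passed in 3 of 19 alternatives, with adjusted p from 0.0317 to 0.455, and was 0.18 without the library labelled wild-type TAC 1. In that fit the difference of TAC effects was 0.05 and the difference between genotypes after TAC 0.02. With all libraries Prmt1 differed between genotypes by -0.06 after TAC (edgeR, adjusted p = 0.82) and by -0.03 in sham hearts (edgeR, adjusted p = 0.885). The genes most like it were Hbegf (r = 0.946), Myl12a (r = 0.927) and Hspb7 (r = 0.926), with r of 0.816, 0.771 and 0.775 over deviations from group means.

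Nos3, the endothelial nitric oxide synthase, did not change past the test in any comparison. It lies at chr5:24364810-24384474 on the + strand (GRCm38). It had 64.6, 63.5, 46.9 and 61.6 CPM in knockout TAC hearts and 50.5 and 66.7 CPM in wild-type TAC hearts. In sham hearts it had 43.8, 47.6, 45.7 and 57.6 CPM in knockouts and 54.3, 70.5, 57.4 and 64.8 CPM in wild types. Each group overlapped each of the others.

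The TAC difference of Nos3 was 0.28 ± 0.12 in knockouts (edgeR, adjusted p = 0.149) and -0.08 ± 0.15 in wild types (edgeR, adjusted p = 0.797). Knockout TAC 3, at 46.9 CPM, stood below the other 3 libraries of its group, and without it the knockout value was 0.38 (edgeR, adjusted p = 0.0494), the only 1 of 19 alternatives that called it, with the others up to 0.589. Endothelial markers, summed over 10 genes, had 2563, 2446, 2074 and 2503 CPM in knockout TAC hearts, the lowest in knockout TAC 3. In wild-type TAC hearts the sums were close to each other, 2420 and 2443 CPM, while Nos3 was at 50.5 and 66.7 CPM. In sham hearts these sums were 1920 to 2286 CPM in knockouts and 2165 to 2622 CPM in wild types. Of the 10 markers, 2 passed as higher after TAC in knockouts and none in wild types, beside 6.73% and 6.91% of all genes. Each of the 10 had counts in every library. The part of endothelial content in the Nos3 values was not tested.

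In sham hearts Nos3 differed by -0.35 ± 0.12 between knockouts and wild types (edgeR, adjusted p = 0.159), and after TAC by 0.01 (edgeR, adjusted p = 0.985). The difference of TAC effects was 0.36 ± 0.20 (edgeR, adjusted p = 0.814). The wild-type TAC libraries, at 50.5 and 66.7 CPM, set these values: the TAC difference in wild types was 0.11 without the library labelled wild-type TAC 1 and -0.29 without wild-type TAC 2. In the same fits the difference of effects was 0.17 and 0.57, and the difference between genotypes after TAC was -0.17 and 0.22. The genes most like Nos3 were Cbfa2t3 (r = 0.943), Hspa12b (r = 0.936) and Ptp4a3 (r = 0.931), and the likeness was as high within groups, at 0.958, 0.967 and 0.892. Nos3 overlaps Atg9b and the antisense gene Gm15587 on the other strand, and since the sources used here do not give the strand setting of the counting, reads of these genes may be mixed.

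Nos1, the neuronal synthase that cardiomyocytes also carry, was close to the limit of detection, with 0 to 23 counts per library. It had 0.369, 0.270, 0.543 and 0.198 CPM in knockout TAC hearts and 0.844 and 1.70 CPM in wild-type TAC hearts. In sham hearts it had 0, 0.153, 0.634 and 0.219 CPM in knockouts and 0.6246, 0.140, 0.547 and 0.701 CPM in wild types. The 2 wild-type TAC libraries were the highest of the 14, and no comparison passed (edgeR, adjusted p = 0.702 for TAC in knockouts, 0.16 for TAC in wild types, 0.189 for knockout against wild type after TAC, 0.48 in sham hearts and 0.915 for the difference of TAC effects). No fold and no like genes are printed at these counts. Nos1 overlaps the antisense gene Gm26995 and, on its own strand, Gm37028.

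Prkg1, the cyclic GMP-dependent kinase of smooth muscle and other cells, did not change past the test. It lies at chr19:30564489-31765033 on the - strand (GRCm38). Cstf2t and Gm23426 overlap it on the other strand, with the same limit as for Nos3. It had 14.1, 22.0, 14.7 and 16.4 CPM in knockout TAC hearts and 21.03 and 14.7 CPM in wild-type TAC hearts, against 18.6, 19.5, 21.3 and 16.9 CPM in knockout sham and 13.97, 15.9, 13.9 and 15.0 CPM in wild-type sham hearts. The knockout sham libraries were above all wild-type sham libraries, and the TAC groups overlapped. That sham difference was 0.37 ± 0.14 (log2, ± SE; edgeR, adjusted p = 0.178), and it passed in 0 of 19 alternatives, with adjusted p from 0.133 to 0.511.

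The TAC difference of Prkg1 was -0.18 ± 0.14 in knockouts (edgeR, adjusted p = 0.419) and 0.28 ± 0.17 in wild types (edgeR, adjusted p = 0.333). The wild-type value rests on which of the 2 TAC libraries is used: it was -0.01 without the library labelled wild-type TAC 1 and 0.52 without wild-type TAC 2. The difference of TAC effects was -0.46 ± 0.22 (edgeR, adjusted p = 0.778), and after TAC knockouts differed from wild types by -0.08 (edgeR, adjusted p = 0.885). Without the library labelled wild-type TAC 1 the difference of effects was -0.17 and the difference after TAC 0.20, and without wild-type TAC 2 they were -0.69 and -0.32. The genes most like Prkg1 were Cpd (r = 0.903) and Pja2 (r = 0.832), followed by Sesn3, with r over deviations from the group means of 0.897 for Cpd and 0.809 for Pja2. Smooth muscle and pericyte markers, 10 genes, summed to 1873 to 2343 CPM in knockout TAC, 1849 to 2337 CPM in wild-type TAC, 2114 to 2283 CPM in knockout sham and 2073 to 2199 CPM in wild-type sham hearts.

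Pde5a, the phosphodiesterase that hydrolyses cyclic GMP and is the target of sildenafil, did not pass the test in any comparison. It lies at chr3:122728947-122859374 on the + strand (GRCm38). Gm34139 and 4930447N08Rik overlap it on the other strand, with the same limit as for Nos3. It had 10.9, 9.33, 7.61 and 11.5 CPM in knockout TAC hearts and 9.67 and 8.82 CPM in wild-type TAC hearts, against 8.81, 11.5, 10.2 and 10.7 CPM in knockout sham and 9.99, 11.5, 9.36 and 9.49 CPM in wild-type sham hearts. All 4 groups overlapped. The TAC difference was -0.07 ± 0.13 in knockouts (edgeR, adjusted p = 0.756) and -0.13 ± 0.16 in wild types (edgeR, adjusted p = 0.68). Knockouts differed from wild types by 0.08 after TAC (edgeR, adjusted p = 0.882) and by 0.03 in sham hearts (edgeR, adjusted p = 0.934). Without the library labelled wild-type TAC 1 the TAC difference in wild types was -0.19 and the difference after TAC 0.15. The genes most like it were Spaar (r = 0.790) and 4930578C19Rik (r = 0.783), and these r were below those of the leading like genes of the other members.

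**Figure D4:**
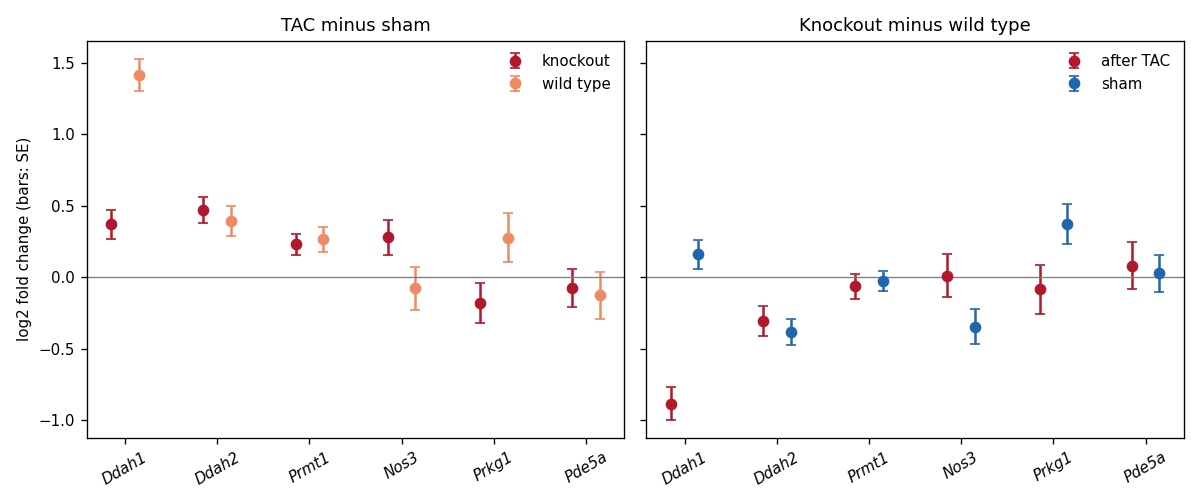
Fitted log2 differences with their SE for 6 of the genes that passed the filter on low counts, Nos1 left out for its few reads: TAC against sham (left) and knockout against wild type (right). For Ddah1 the difference between TAC and sham was 0.37 in knockouts and 1.41 in wild types, and for Ddah2 it was 0.47 in knockouts and 0.40 in wild types.

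Set against all genes, the 6 tested members other than Ddah1 were called as follows. After TAC in knockouts, 2 of 6 passed, both higher, beside 13% of all genes (6.73% higher and 6.26% lower). After TAC in wild types, 1 of 6 passed, as higher, beside 12.2% of all genes (6.91% higher and 5.3% lower), and 0 of 6 did without the library labelled wild-type TAC 1. For knockout against wild type, 0 of 6 passed after TAC, beside 1.48% of all genes (0.377% higher and 1.11% lower), and 0 of 6 in sham hearts, beside 0.888% (0.575% higher and 0.313% lower). For the difference of TAC effects, 0 of 6 passed, beside 0.0192% of all genes (0% higher and 0.0192% lower). Below an unadjusted p of 0.05 edgeR found 2 of the 6 after TAC and 3 of the 6 in sham hearts between genotypes and 0 for the difference of effects, and DESeq2 called 0, 1 and 0 of them. Of all genes, 14.8% after TAC, 18% in sham hearts and 6.53% for the difference of effects were below that unadjusted p.

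A further 62 genes of the pathway were read from the same fit, and 58 passed the filter. After TAC in knockouts 4 rose, 3 fell and 51 did not pass, which is 12.1% called, and in wild types 3 rose, 4 fell and 51 did not pass, also 12.1% called. These shares are near those of all genes, 13% in knockouts and 12.2% in wild types. Their median log2 difference was 0.10 in knockouts and 0.09 in wild types. Of the 7 called in knockouts and the 7 called in wild types, 4 were shared, each in the same direction: Prmt2 and Cyb5r3 rose, and Rgs2 and Pde3a fell. The share of all genes called in both genotypes was not computed, so this overlap does not set the pathway apart from all genes.

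Prmt2, another arginine methyltransferase, rose after TAC by 0.42 ± 0.08 (log2, ± SE) in knockouts (edgeR, adjusted p = 0.00564), to 20.2 ± 1.68 CPM in TAC hearts against 15.0 ± 0.713 CPM in sham hearts (SD, n = 4 each). In wild types it rose by 0.61 ± 0.10 (edgeR, adjusted p = 0.00095), to 25.5 ± 1.39 CPM in TAC hearts against 16.7 ± 0.998 CPM in sham hearts (SD, n = 2 and 4). Its wild-type call held in all 19 alternatives and its knockout call in 18, lost in the 10-week libraries alone. Apart from Prmt1 and Prmt2, none of the 6 other methyltransferases tested passed in either genotype, beside 13% of all genes in knockouts and 12.2% in wild types.

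Cyb5r3, a reductase known to act on haem iron in soluble guanylate cyclase and in globins that take up nitric oxide, rose by 0.38 in knockouts (edgeR, adjusted p = 0.00942) and by 0.47 in wild types (edgeR, adjusted p = 0.00588). Rgs2, a regulator of G protein signalling that PKG I activates, fell by 0.91 in knockouts (edgeR, adjusted p = 0.0238) and by 1.28 in wild types (edgeR, adjusted p = 0.0137). It averaged 29.95 ± 11.9 CPM in knockout TAC and 23.3 ± 2.08 CPM in wild-type TAC hearts, against 57.0 ± 15.8 CPM in knockout sham and 56.8 ± 10.8 CPM in wild-type sham hearts (SD, n = 4, 2, 4 and 4). Pde3a, a phosphodiesterase of cyclic AMP that cyclic GMP inhibits, fell by 0.31 in knockouts (edgeR, adjusted p = 0.0246) and by 0.37 in wild types (edgeR, adjusted p = 0.0275). Of the 19 alternatives, those that kept the call in knockouts were 18 for Cyb5r3, 12 for Rgs2 and 13 for Pde3a. In wild types they were 18 for Cyb5r3, 18 for Rgs2 and 12 for Pde3a.

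The remaining calls were made in a single genotype, and none of these genes differed between genotypes in its TAC effect by edgeR's test. In knockouts Dynll1, a dynein light chain that binds NOS1, rose by 0.65 (edgeR, adjusted p = 0.0141) and Vasp, a PKG substrate at actin filaments, rose by 0.36 (edgeR, adjusted p = 0.0433). Nos1ap, an adaptor of NOS1, fell by 0.71 in knockouts (edgeR, adjusted p = 0.0124). In wild types Hsp90aa1, a chaperone that binds NOS3, rose by 0.73 (edgeR, adjusted p = 0.00732). Slc7a1, a carrier of arginine, fell by 0.84 (edgeR, adjusted p = 0.0254). Gchfr, a regulator of the enzyme that starts tetrahydrobiopterin synthesis, fell by 0.63 in wild types (edgeR, adjusted p = 0.0348). Of 19 alternatives, 16 kept the knockout call for Dynll1, 9 for Vasp and 17 for Nos1ap. The wild-type call was kept in 18 for Hsp90aa1, 14 for Slc7a1 and 10 for Gchfr, which DESeq2 did not call. Without the library labelled wild-type TAC 1, the log2 differences in wild types were 0.72 for Hsp90aa1, -0.86 for Slc7a1, -0.90 for Gchfr, -1.19 for Rgs2, -0.32 for Pde3a, 0.32 for Cyb5r3 and 0.66 for Prmt2. The smallest adjusted p of the difference of effects among these 6 genes was 0.707, for Gchfr.

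The guanylate cyclases were measured by 5 genes, and none passed in any comparison in edgeR or DESeq2. Gucy1a1, Gucy1a2 and Gucy1b1 encode subunits of the soluble cyclase, which nitric oxide activates, and Npr1 and Npr2 encode natriuretic peptide receptors. Below an unadjusted p of 0.05 edgeR found 3 of 5 between genotypes in sham hearts, where 18% of all genes were. It found 0 in the other comparisons. The TAC differences of the 5 genes ran from -0.03 for Gucy1a1 to 0.17 for Gucy1a2 in knockouts. In wild types they ran from -0.17 for Gucy1b1 to 0.41 for Gucy1a2. The soluble subunits Gucy1a1 and Gucy1b1 averaged 38.0 ± 5.03 and 36.2 ± 5.79 CPM in knockout TAC hearts, against 38.8 ± 3.81 and 35.7 ± 3.80 CPM in knockout sham hearts (SD, n = 4 each). In wild types they averaged 43.8 ± 0.0307 and 39.0 ± 6.46 CPM in TAC hearts, against 45.8 ± 3.79 and 43.8 ± 3.06 CPM in sham hearts (SD, n = 2 and 4). Of the phosphodiesterases that hydrolyse cyclic GMP, 1 of 9 passed in each genotype after TAC, Pde3a in both. Of 9 substrates and effectors of PKG, 2 passed in knockouts (Vasp and Rgs2) and 1 in wild types (Rgs2). Of all genes, 13% passed after TAC in knockouts and 12.2% in wild types, and lists of 5 or 9 genes are too short to tell from those shares.

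Between knockouts and wild types none of the 58 pathway genes passed, either after TAC, beside 1.48% of all genes, or in sham hearts, beside 0.888%. At shares this low, 0 of 58 does not set the pathway apart from all genes. Below an unadjusted p of 0.05 edgeR found 9 after TAC and 15 in sham hearts, beside 14.8% of all genes after TAC and 18% in sham hearts, and DESeq2 called 0 after TAC and 2 in sham hearts. For the difference of TAC effects 0 of 58 passed, beside 0.0192% of all genes. In edgeR 2 were below an unadjusted p of 0.05, beside 6.53% of all genes, and DESeq2 called 0. The largest difference between genotypes after TAC was that of Kcnma1, a potassium channel that PKG I phosphorylates, at -1.66 on the log2 scale, and it did not pass (edgeR, adjusted p = 0.237). It rests on few reads, 6, 2, 4 and 5 counts in knockout TAC and 6 and 19 counts in wild-type TAC hearts.

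The number of pathway calls after TAC moved with single libraries. In wild types, 1 of the 58 genes was called without the library labelled wild-type TAC 1, a fit with 1 wild-type TAC library and with most of the folds given above close to their full values, and 4 were called without wild-type sham 3. In knockouts, 3 were called without knockout sham 2, 4 without knockout TAC 1, 4 without knockout TAC 4 and 11 without knockout TAC 3. All TAC hearts were of 10 weeks and the sham hearts of 10 and 11 weeks, and with the 10-week libraries alone 0 of 58 were called in knockouts (15 of all genes) and 4 of 58 in wild types.

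**Figure D5:**
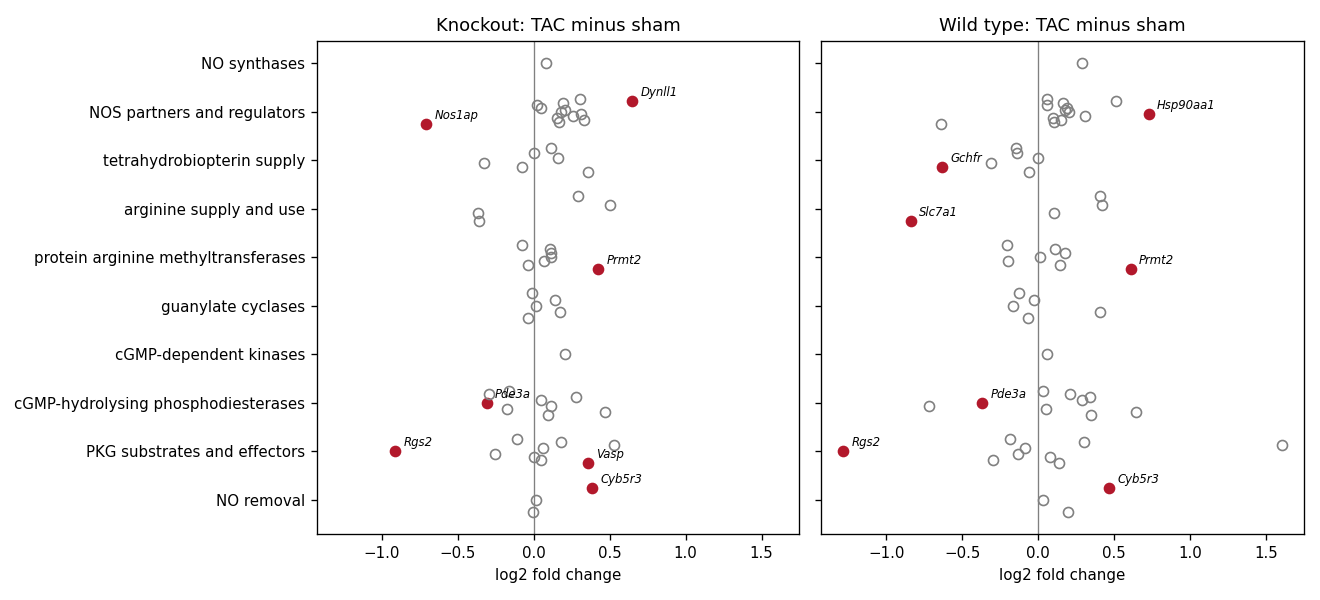
Log2 difference between TAC and sham hearts in knockouts and in wild types for the 58 other tested pathway genes, by list, with called genes marked. Called genes in knockouts run from -0.91 (Rgs2) to 0.65 (Dynll1) and in wild types from -1.28 (Rgs2) to 0.73 (Hsp90aa1).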

How the data were processed

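RNA of whole hearts was enriched for polyadenylated transcripts and made into strand-specific libraries, per the labels' protocols. Tools listed in the submitters' processing notes, with no role for each, are STAR 2.4.2a, Picard 2.10.3 and bcl2fastq 2.17.1.14, with builds mm10 and GRCm38. The authors deposited raw read counts per gene, with coding, untranslated and ambiguous parts per the file headers. The sources used here do not give the counter's version, the annotation or the strand setting. Rows without a feature (10.7% to 19.0% of a library) and ambiguous reads (1.43% to 1.59%) entered neither library sizes nor tests. Of 51912 gene identifiers, 51633 were found in GENCODE M21 (GRCm38), which gave symbols and positions.

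Counts were tested with edgeR 4.0.16 in R 4.3.3: TMM scaling, filterByExpr with a minimum count of 10, and a quasi-likelihood fit with 1 coefficient per group over all 14 libraries. Adjusted p-values are Benjamini-Hochberg over 15651 genes, with a threshold of 0.05, and the SE is the log2 difference divided by the square root of F. The script was tested on simulated data. No replicate pair agreed within sampling noise. Alternatives were other size factors, DESeq2 1.42.0, no filter, age as a covariate, 10-week libraries, and each library left out. The members and lists were chosen with earlier results of these data known. Named were the 8 members, up to 4 called genes per pathway list and comparison, and the genes most like each member (log2 CPM, prior count 2), of which 1 is not reported here. Kcnma1 and the guanylate cyclases were named after their values were seen.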

Additional observations from a re-analysis of the deposited data

Results flagged for a closer look

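In 21 groups of 4 libraries examined for a value apart from the others, Agxt2 left aside, 2 held one by Dixon's criterion, and chance marks about 1 in 20 such groups. Ddah2 had 34.3 CPM in wild-type sham 3, whereas its 3 companions of that group held 29.3 to 29.98 CPM. Nos3 had 46.9 CPM in knockout TAC 3, against 61.6 to 64.6 CPM in the other knockout TAC libraries, and the endothelial marker sum of that library, 2074 CPM, was also the lowest of its group. Agxt2 had 0.0731 CPM in knockout sham 4, which is 1 count, and 0 in the other libraries. A lone count among zeros stands apart by construction, so the chance rate does not apply to it.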

How the results depend on the processing

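Of 570 values of the members other than Ddah1 recomputed under 19 alternatives, 542 stayed on their side of the threshold, 19 were no longer called, 9 were newly called and 0 reversed where either fit called them. Among the 542, 24 values called in neither fit changed sign. The counts of called genes moved more. After TAC in knockouts, 2033 genes became 588 with age as a covariate, 15 in the 10-week libraries and 797 to 2306 with a library left out, and the 7 pathway genes became 2, 0 and 3 to 11. After TAC in wild types, 1912 became 1158, 938 and 512 (without the library labelled wild-type TAC 1) to 2224, and the 7 pathway genes became 4, 4 and 1 to 8. Between genotypes after TAC, 232 became 467 with DESeq2, 525 without the filter, 120 in the 10-week libraries and 46 to 359 with a library left out, where the pathway count was 0 to 0. In sham hearts, 139 became 582, 387, 0 and 8 to 531, and the 0 pathway genes became 2 with DESeq2, 1 without the filter and 0 to 2 with a library left out. For the difference of TAC effects, 3 became 37 with DESeq2, 66 without the filter, 0 with age as a covariate, 0 in the 10-week libraries and 0 to 32 with a library left out. The cause of these moves was not tested. In the 10-week fit each sham group held 2 libraries, and all mice of 11 weeks were sham. Age and the number of samples cannot be told apart there. No paired analysis was possible because the replicate numbers follow accession order and pair no samples. Depth limits Nos1 and Agxt2.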
